A study of Mus musculus with 18 samples.

Results

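The 10 genes described here encode the major inducible heat shock proteins and their close partners, and they were taken by symbol from the 35655 genes of the count table: Hspa1a, Hspa1b, Hspa8, Hsp90aa1, Hsph1, Dnajb1, Hspb1, Cryab, Hspd1 and Hspe1. All 10 passed the filter on low counts that left 10312 genes for testing. The 18 libraries were 3′-end RNA sequencing (MACE) libraries of laser-dissected carotid sections from wild-type male C57/BL6 mice, which were 11 weeks old at surgery. There were 4 libraries of day 0, given as pre-injury in the labels, and 4, 3, 4 and 3 libraries of days 7, 14, 21 and 28 after a deep wire injury of the carotid artery, a model that breaks the inner elastic lamina. The study describes pools of up to 70 sections that held the outer elastic lamina and the neointima. The neointima is the tissue that grows on the inner side of the injured wall. What was cut from the pre-injury vessels of day 0 is not stated separately, so the tissue may differ between day 0 and the later days. The study used the right, uninjured carotid as control, and whether the day 0 vessels were such vessels of injured mice is not stated. The label of each library ends in a number, which is taken here as a mouse number although the labels do not say so. Of these numbers, 3 are shared between a day 0 and a day 21 library. The p-values below measure the spread between these libraries, which were pools of sections.

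Heat shock proteins bind unfolded protein and either hold it in solution or help it to fold. The HSP70 proteins do so in cycles of ATP hydrolysis that HSP40 proteins start and exchange factors such as HSP110 reset, HSP90 receives clients from HSP70, the small heat shock proteins hold clients without ATP, and a chaperonin folds proteins inside mitochondria. Under stress, heat shock factor 1 binds inverted repeats of a short sequence unit, the heat shock element, before the start of the inducible genes. Smooth muscle cells of the arterial wall are known for high levels of several small heat shock proteins even without stress.

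Totals were 440675 to 878310 counts per library, with 1.77% to 4.59% of the counts from the mitochondrial genes of the table. Levels are given as CPM, counts scaled to a common library size after TMM normalization. Since MACE counts 3′ ends, CPM of different genes are not scaled by length and are not ranked against each other here. The labelled artery tissue was checked by the smooth muscle genes, among them Acta2 (smooth muscle actin) and Tagln (transgelin), whose summed CPM was 39665 to 45044 on day 0, 1788 to 8175 on day 7 and 25534 to 33467 on day 28. The summed CPM of 14 macrophage genes was 136 to 575 on day 0 and 5734 to 8271 on day 7. In such bulk samples, fewer cells of a type and less RNA per cell cannot be told apart. Replicate 1 of day 28 stood apart from the other 2 libraries of its day in the heat shock genes, and the day 28 comparisons of these genes are given with and without it. Since it was set apart by the levels of these same genes, their day 28 levels without it are lower by construction. The p-values of fits without it do not allow for that choice.

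The promoters come first as background on the genes. The heat shock element is known from inducible genes such as these, so a share above that of other genes could be foreseen. A match to the heat shock element was searched on both strands in the 250 bases before the start of the canonical transcript of each gene (GRCm39, GENCODE vM39). The motif was a pair of inverted units, GAANNTTC or TTCNNGAA, and both forms read the same on either strand. Of the 10 heat shock genes, 7 held at least 1 match (70.0%), as did 12.3% of 21751 promoters of protein-coding genes and 10.8% of those of the genes tested. The whole windows of Hspa1a and Hspb1 are printed since of the 10 genes these had the largest change on day 7 among the HSP70 and among the small heat shock protein genes, read 5′ to 3′ in the direction of the gene, with the matches in capitals.
Hspa1a, chr17:35191133-35191382, minus strand: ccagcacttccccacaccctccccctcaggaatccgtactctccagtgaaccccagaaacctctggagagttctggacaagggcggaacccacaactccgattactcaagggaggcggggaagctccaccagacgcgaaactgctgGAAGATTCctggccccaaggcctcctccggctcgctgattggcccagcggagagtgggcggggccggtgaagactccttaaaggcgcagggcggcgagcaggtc
Hspb1, chr5:135916510-135916759, plus strand: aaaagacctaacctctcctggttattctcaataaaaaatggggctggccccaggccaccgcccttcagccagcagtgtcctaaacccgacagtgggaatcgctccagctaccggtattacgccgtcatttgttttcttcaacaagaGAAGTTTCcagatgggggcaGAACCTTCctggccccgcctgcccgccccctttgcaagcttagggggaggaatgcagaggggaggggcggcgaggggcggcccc

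The window of Hspa1a ended at the transcript's start on chromosome 17 and held its match 104 to 97 bases before the start. The window of Hspa1b differed from it in 3 of 250 bases, and the match lay at the same place. Hspb1 held 2 matches, which began 104 and 84 bases before its start on chromosome 5. For the other genes 30 bases around the first match are shown, since annotated exons of other transcripts reach into their windows.
Hsph1, chr5:149559816-149559845, minus strand: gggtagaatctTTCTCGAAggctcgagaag
Cryab, chr9:50664137-50664166, plus strand: gctaagcctagGAAGATTCcagtccctgcc
Hspd1, chr1:55127217-55127246, minus strand: cgcgcggggccTTCCGGAAGGTTCTAGAAc

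Hsph1 and Cryab each held 1 match, which began 28 and 39 bases before the start. Hspd1 and Hspe1 lie head to head on chromosome 1 with their starts 108 bases apart, and a single stretch with 3 overlapping matches between them counts for both genes. That stretch also held the longer form of 3 units, GAANNTTCNNGAA or its reverse complement TTCNNGAANNTTC, which always contains 2-unit matches and which 2 of the 10 heat shock genes held (20%) against 0.349% of all protein-coding promoters. No match was found in the windows of Hspa8, Hsp90aa1 and Dnajb1, which says only that these letters are not in the 250 bases. All 5 heat shock genes that were lower on day 7 held a match, as did 2 of the 5 that did not pass the test, Hspd1 and Hspe1. Among other genes, 1 of 6 promoters of small heat shock protein genes and 1 of 12 of smooth muscle genes held a match. Of the genes tested in those lists, 4 of 5 and 11 of 11 were lower on day 7. The part of the match in the day 7 levels was not tested. The map of the matches gives their distances to the start.

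**Figure D1:**
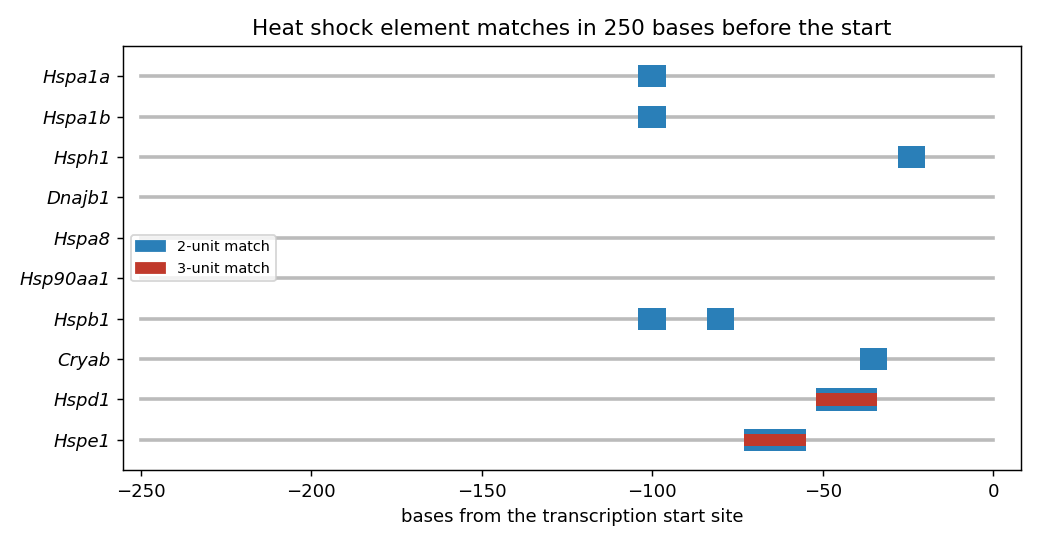
Matches to the heat shock element in the 250 bases before the start of each heat shock gene. The x axis gives bases from the transcription start site, grey lines are the windows, blue bars are 2-unit matches and red bars 3-unit matches. Hspa1a, Hspa1b and Hspb1 each have a match that begins 104 bases before the start, and Hspa8, Hsp90aa1 and Dnajb1 have none.

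On day 7, 5 of the 10 were lower than on day 0, namely both stress-inducible HSP70 genes (Hspa1a and Hspa1b), the HSP110 gene Hsph1 and the small heat shock protein genes Hspb1 and Cryab. The other 5, which encode the constitutive HSP70, HSP90, an HSP40 and the mitochondrial chaperonin, did not pass the test. Of all genes tested, 8.53% were lower on day 7 and 19.8% changed in either direction, and 9.71% had every day 7 library under every day 0 library, as these 5 did. The median log2 fold change of the 10 genes was -0.97, against 0.07 over all genes tested. All tests were edgeR quasi-likelihood tests in 1 fit of 18 libraries, and p-values were adjusted by Benjamini-Hochberg over the 10312 genes, with 0.05 as the threshold. SE is the standard error of a log2 fold change.

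**Figure D2:**
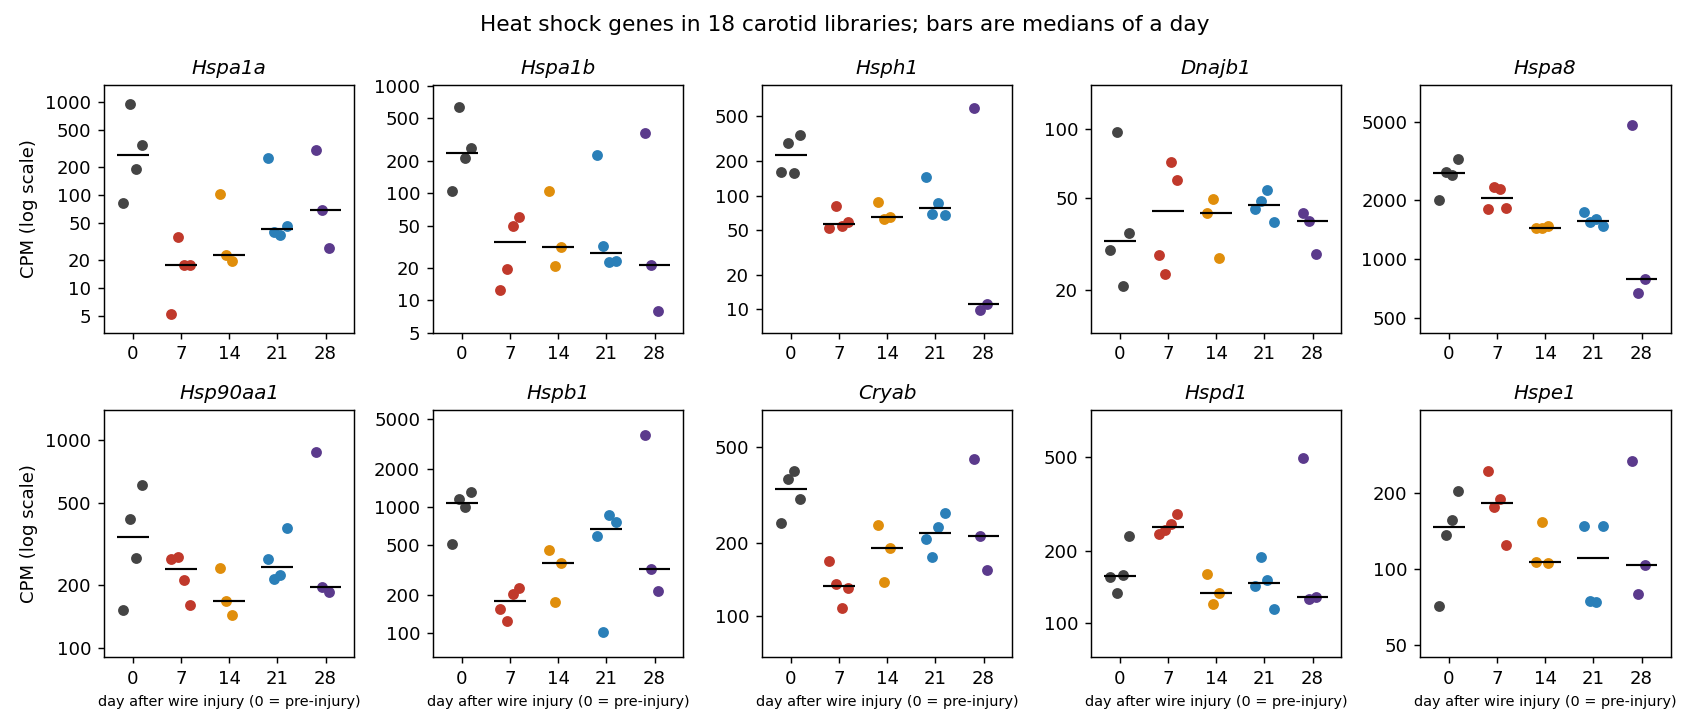
CPM of the 10 heat shock genes in each of 18 libraries. The x axis gives the day after wire injury, the y axis CPM on a log scale, points are libraries in order of replicate number and bars are the medians of a day. For Hspa1a, Hspa1b, Hsph1, Hspb1 and Cryab every day 7 library lies under every day 0 library, and replicate 1 of day 28 lies above the other 2 libraries of that day in each panel.

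The stress-inducible HSP70 proteins, which are made in large amounts after heat or toxic stress, are encoded by 2 neighbouring genes on chromosome 17, Hspa1a at 35188166 to 35191132 and Hspa1b at 35175412 to 35178214, both on the minus strand. Hspa1a stood at 83.4, 953, 192 and 344 CPM in the 4 libraries of day 0 and at 5.34, 35.9, 17.9 and 17.8 CPM in those of day 7. The highest day 7 library lay under the lowest of day 0, although day 0 itself spanned an 11.4-fold range, with replicate 2 far above the rest. Hspa1a was 20.3-fold lower on day 7 (log2 fold change -4.34, SE 0.84, adjusted p = 0.000533). These day 7 levels rested on 3, 20, 9 and 11 counts. The call was kept in each of 18 fits that left out 1 library, with log2 fold changes of -4.87 to -3.42.

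In 7 of the 10 libraries of days 14 to 28, Hspa1a lay under every day 0 library. On day 14 it stood at 102, 22.9 and 19.6 CPM, lower than day 0 by the test (log2 fold change -3.03, adjusted p = 0.0317), although replicate 1 lay above the lowest day 0 library. The adjusted p was 0.164 without day 0 replicate 2, 0.181 without day 14 replicate 2 and 0.16 without day 14 replicate 3. On day 21 it stood at 251, 40.4, 37.8 and 46.5 CPM, and 3 of the 4 libraries lay under every day 0 library (log2 fold change -2.02, adjusted p = 0.0796). Without day 21 replicate 1 the log2 fold change was -3.24 (adjusted p = 0.0154). The summed CPM of 3 skeletal muscle genes was 267 in that library and 0 to 6.05 in the other 3 of its day. In day 14 replicate 2 that sum was 289 CPM, and Hspa1a stood at 22.9 CPM. The part of this sum in the level of Hspa1a was not tested on either day. On day 28 it stood at 303, 69.5 and 27.2 CPM, and the difference from day 0 did not pass the test (log2 fold change -1.56, adjusted p = 0.352).

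Hspa1b encodes a nearly identical HSP70 protein and followed Hspa1a. It stood at 106, 640, 212 and 262 CPM on day 0 and at 12.5, 19.8, 49.8 and 59.7 CPM on day 7. The groups did not overlap, and day 0 replicate 2 was again the highest of all 18 libraries. Hspa1b was 8.56-fold lower on day 7 (log2 fold change -3.10, SE 0.88, adjusted p = 0.0127), and without day 0 replicate 2 the adjusted p was 0.0634. The day 14 libraries held 104, 21.2 and 31.3 CPM, those of day 21 held 226, 32.3, 23.0 and 23.3 CPM, and those of day 28 held 365, 21.5 and 7.99 CPM. In each of these days replicate 1 was the highest. The remaining libraries, at 7.99 to 32.3 CPM, lay under every day 0 library, as did replicate 1 of day 14. The test gave adjusted p of 0.122, 0.147 and 0.547 on days 14, 21 and 28. With the mouse number as a block, in limma with a correlation estimated over all genes, Hspa1b was lower on day 21 (-2.24 in log2 units, adjusted p = 0.0406).

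The transcripts of the HSP70 pair are alike enough that counting could split their reads. Of the stretches of 31 bases in the whole transcript of Hspa1a, 63.8% also occur in Hspa1b, and of those of Hspa1b 67.5% occur in Hspa1a, whereas in the last 350 bases, from which MACE reads come, 0 of 320 were shared. The sum of both genes was therefore also fitted as 1 feature. For this sum the day 7 log2 fold change was -3.67, lower by the test (adjusted p = 0.00213), and the values of -2.80, -2.01 and -1.40 on days 14, 21 and 28 did not pass it (adjusted p = 0.0565, 0.0984 and 0.439). An annotated non-coding gene on the other strand overlaps an exon of Hspa1a, and whether the counting used the strand is not stated.

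The libraries that share a mouse number were compared for the HSP70 pair. Day 0 replicate 2 and day 21 replicate 1 carry the same number, and on each of these days that library had the highest sum of Hspa1a and Hspa1b (1592 and 477 CPM). The other 2 shared numbers gave 404 and 606 CPM on day 0 and, in the same order, 60.8 and 69.8 CPM on day 21. In all 3 pairs the day 21 library held less than the day 0 library.

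Hsph1 encodes HSP110, which releases ADP from HSP70, and lies on chromosome 5 at 149537636 to 149560156. It stood at 161, 293, 158 and 340 CPM on day 0 and at 51.6, 80.9, 53.8 and 58.1 CPM on day 7. The groups did not overlap, and the day 7 libraries lay close together. Hsph1 was 3.89-fold lower on day 7 (log2 fold change -1.96, SE 0.70), with an adjusted p of 0.0499 that lies at the threshold. It was above 0.05 in 12 of 18 fits that left out 1 library, among them those without any 1 library of day 0 or day 7, and was 8.19e-05 without day 28 replicate 1. With DESeq2 or with RLE normalization factors the call was also lost. Of the 27 alternatives run for this comparison of Hsph1, 13 kept the call. Hsph1 stood at 88.0, 61.8 and 65.2 CPM on day 14 and at 147, 68.6, 85.5 and 67.5 CPM on day 21. All 7 of these libraries lay under every day 0 library, without passing the test in the fit of 18 libraries (adjusted p = 0.223 and 0.247). Without day 28 replicate 1 both differences passed it, with log2 fold changes of -1.74 and -1.35 (adjusted p = 0.00278 and 0.00672).

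Dnajb1, on chromosome 8 at 84334811 to 84339820, encodes the main stress-inducible HSP40, which hands clients to HSP70. In contrast to its HSP70 partners, it stood at 29.8, 96.8, 20.9 and 35.4 CPM on day 0 and at 28.5, 23.4, 71.8 and 59.7 CPM on day 7. The ranges overlapped almost fully, with a log2 fold change of -0.01 (SE 0.44, adjusted p = 0.993). Later libraries held 27.4 to 54.3 CPM, inside the day 0 range. As a measure of likeness, log2 CPM was centred on each gene's mean and the absolute difference from the centred sum of Hspa1a and Hspa1b was averaged over 18 libraries. Dnajb1 ranked 3478th of the genes tested, while Hspb1 ranked 8th and Hsph1 10th. Without day 28 replicate 1 the ranks were 3205, 17 and 37.

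The 5 genes most like the HSP70 pair by this measure were Asb2, Npy1r (a neuropeptide Y receptor), Dpep1, Dnajb5 and Ppp1cb (a catalytic subunit of myosin phosphatase), with mean differences of 0.70 to 0.84 log2 units against a median of 1.53 over all genes. They were also the first 5 without day 28 replicate 1. Dnajb5, an HSP40 relative, stood at a mean of 113 CPM on day 0 and of 22.3, 32.2, 22.2 and 29.6 CPM on days 7, 14, 21 and 28. Its log2 fold change was -2.32 on both day 7 (adjusted p = 0.00705) and day 21 (adjusted p = 0.0161), lower by the test.

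The constitutive HSP70 gene Hspa8, on chromosome 9 at 40711630 to 40731039, serves folding and clathrin uncoating in unstressed cells. It stood at 2001, 2795, 2675 and 3252 CPM on day 0, at 1793, 2340, 2283 and 1816 CPM on day 7 and at 1443, 1444 and 1480 CPM on day 14. The day 7 libraries overlapped day 0, and all day 14 libraries lay under it within a narrow range. On day 21 it stood at 1735, 1536, 1603 and 1466 CPM, again under every day 0 library. All 7 libraries of days 14 and 21 also lay under every day 7 library. The log2 fold changes of -0.38, -0.88 and -0.76 on days 7, 14 and 21 did not pass the test (adjusted p = 0.556, 0.262 and 0.239). Without day 28 replicate 1 those of days 14 and 21 did (-0.89 and -0.77, adjusted p = 0.0072 and 0.00909).

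Hsp90aa1, on chromosome 12 at 110656842 to 110669166, encodes the inducible form of HSP90. It stood at 152, 416, 270 and 612 CPM on day 0, at 269, 273, 211 and 160 CPM on day 7, and at 243, 168 and 144 CPM on day 14. The groups overlapped, since day 0 replicate 1 was nearly as low as the lowest injured library. It stood at 269, 214, 224 and 379 CPM on day 21, within the day 0 range. No comparison with day 0 passed the test, with log2 fold changes of -0.97 on day 14 to 0.22 on day 28 and adjusted p from 0.263 to 0.866. Without day 28 replicate 1 the log2 fold change of day 28 was -0.91 (adjusted p = 0.191). Hsp90ab1, the constitutive HSP90 gene of the list of relatives, had a mean of 1006 CPM on day 0 and of 764 CPM on day 7 (log2 fold change -0.40, adjusted p = 0.376).

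The small heat shock protein Hspb1 (HSP27), which binds actin filaments and is phosphorylated in contracting smooth muscle, lies on chromosome 5 at 135916760 to 135918417. It stood at 505, 1149, 1005 and 1310 CPM on day 0 and at 155, 126, 203 and 228 CPM on day 7. The highest day 7 library held less than the lowest day 0 library. Hspb1 was 5.57-fold lower on day 7 (log2 fold change -2.48, SE 0.64, adjusted p = 0.00636). It stood at 453, 176 and 358 CPM on day 14 and at 585, 103, 863 and 763 CPM on day 21. By day 21, 3 of 4 libraries lay within the day 0 range and replicate 2 lay under every other library of the series. Against day 0 the log2 fold changes were -1.59 on day 14 and -0.78 on day 21 (adjusted p = 0.206 and 0.506). The smooth muscle sum was also lowest within its day in replicate 2 on days 14 and 21 (8794 and 9919 CPM), and its part in the level of Hspb1 was not tested.

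Cryab (alpha B-crystallin), which protects desmin and other filaments of muscle cells, lies on chromosome 9 at 50651859 to 50668567. It stood at 241, 367, 398 and 304 CPM on day 0 and at 169, 135, 108 and 131 CPM on day 7. The groups did not overlap, and Cryab was 2.41-fold lower (log2 fold change -1.27, SE 0.29, adjusted p = 0.00231). The call was kept in all 27 alternatives run for it. It stood at 237, 138 and 190 CPM on day 14 and at 208, 176, 232 and 265 CPM on day 21. The means of these days lay between those of days 7 and 0, with single libraries inside the day 7 or the day 0 range, and neither day passed the test against day 0 (log2 fold changes -0.80 and -0.57, adjusted p = 0.151 and 0.236). The genes most like Cryab over 18 libraries were Clic4, Txnip, Crebbp, Chmp3 and Ccni, with mean differences of 0.22 to 0.25 log2 units against a median of 0.74. Without day 28 replicate 1 Dctn6 ranked first and Crebbp 17th, and the other 4 stayed among the first 5.

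Cryab shares its 5′ region with another small heat shock protein gene, Hspb2, whose start lies 329 bases away on the other strand. Hspb2 had a mean of 86.9 CPM on day 0 and of 24.1 CPM on day 7, and was lower on day 7 (log2 fold change -1.84, adjusted p = 0.00477). Annotated exons of the 2 genes overlap on opposite strands, so without a stated strand in the counting their reads cannot be told apart there.

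Beyond Hspb1 and Cryab, 5 small heat shock protein genes were tested and 4 of them were lower on day 7. Hspb6, which binds actin-regulating partners in smooth muscle, had means of 219 CPM on day 0 and 15.7 CPM on day 7, 13.8-fold lower (log2 fold change -3.79, adjusted p = 1.62e-05). Its levels were still lower than day 0 at the 3 later times (-2.38, -2.10 and -2.35 in log2 units, adjusted p = 0.00699, 0.00637 and 0.0322), on day 28 also without replicate 1 (-3.34, adjusted p = 0.00399). Hspb8, which works with BAG3 in the removal of damaged filaments, was lower on days 7, 14 and 21 with log2 fold changes of -1.48, -1.39 and -1.41 (adjusted p = 0.000324, 0.0048 and 0.0017). Hspb7 was lower on day 7 (-2.16, adjusted p = 0.000243). On day 28 Hspb7 and Hspb8 had means of 247 and 273 CPM, against 192 and 287 CPM on day 0. The median log2 fold change of the list was -1.84 on day 7, and that of 11 smooth muscle genes, all of which were lower, was -3.41.

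The mitochondrial chaperonin is built from HSP60 (Hspd1) and its lid HSP10 (Hspe1), which share the promoter shown above. Hspd1, at 55116989 to 55171038 on chromosome 1, stood at 155, 133, 158 and 232 CPM on day 0 and at 237, 246, 261 and 286 CPM on day 7. Every day 7 library lay above every day 0 library, as for 13.6% of all genes tested, but the difference did not pass the test (log2 fold change 0.60, SE 0.33, adjusted p = 0.23). On days 14 and 21 it stood at 160, 120 and 133 CPM and at 142, 190, 151 and 114 CPM. These 7 libraries all lay under the day 7 libraries, as for 7.59% and 9.18% of all genes tested on days 14 and 21, and the comparisons of days 14 and 21 with day 7 gave log2 fold changes of -0.90 and -0.79 (adjusted p = 0.308 and 0.174). Hspe1, at 55127260 to 55130476, stood at 71.5, 136, 157 and 205 CPM on day 0 and at 246, 176, 189 and 124 CPM on day 7. Its groups overlapped on every day, and no test against day 0 passed (adjusted p = 0.558 to 0.954). The summed CPM of 12 proliferation genes was 103 to 205 on day 0 and 497 to 885 on day 7, and its part in the level of Hspd1 was not tested.

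**Figure D3:**
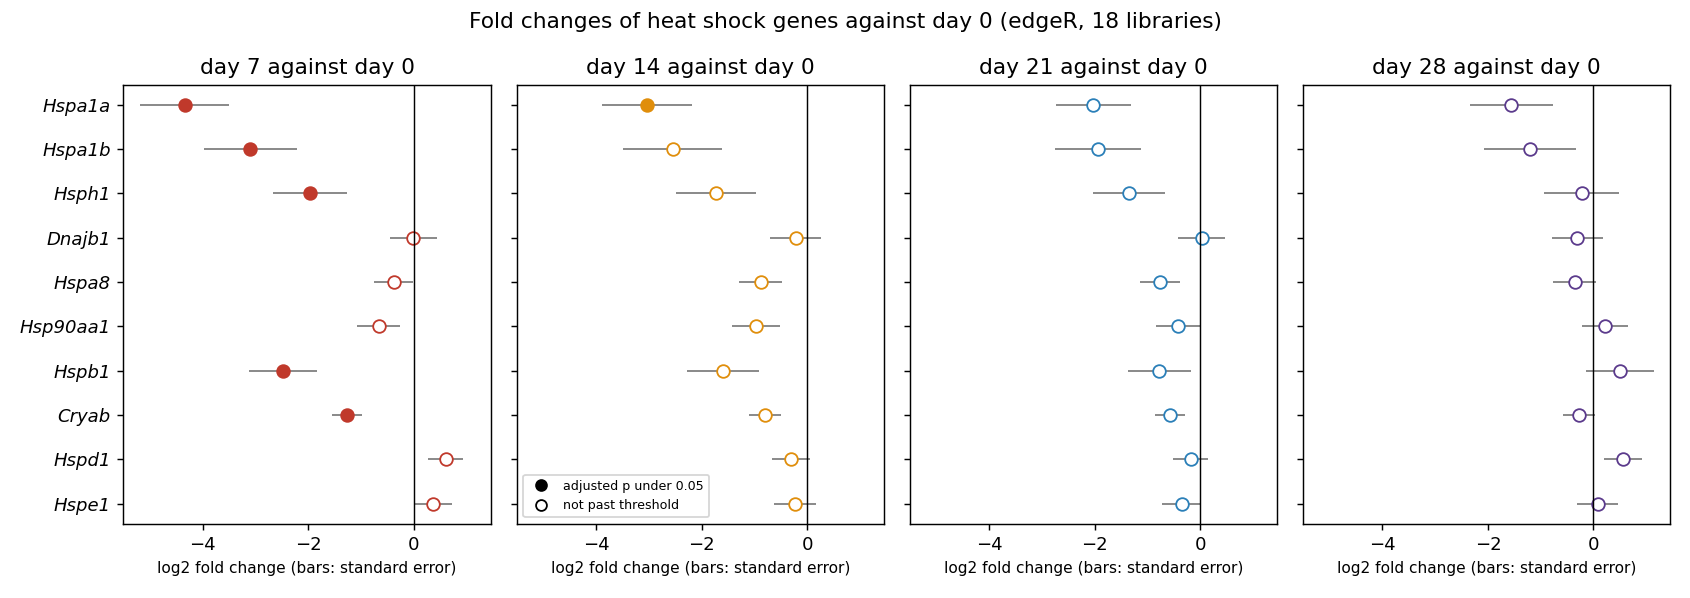
Log2 fold changes of the 10 heat shock genes on days 7, 14, 21 and 28 against day 0. Points are edgeR estimates from 18 libraries, bars are standard errors, and filled points have an adjusted p under 0.05. On day 7 there are 5 filled points, all left of 0, on day 14 only Hspa1a is filled, and on days 21 and 28 none is.

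By the comparisons with day 0, the number of heat shock genes past the threshold went from 5 on day 7 to 1 on day 14 and 0 on days 21 and 28. The background also differed between days, with 1.42% of all genes lower on day 14 and 2.93% lower on day 21. In either direction, 8.84% changed on day 21 and 1.34% on day 28. On day 14, 5 of the 10 genes had every library under every day 0 library, as did 6.79% of all genes, and on day 21 2 genes did (6.81% of all genes). Negative log2 fold changes were found for all 10 genes on day 14, for 9 on day 21 and for 6 at the last time, and their medians were -0.93, -0.67 and -0.25. Without day 28 replicate 1 all 10 were negative on day 28, with a median of -1.38 against -0.06 over all genes, and those of Hspb1, Hspd1, Hsp90aa1 and Hspe1 turned from 0.51, 0.56, 0.22 and 0.09 to -1.87, -0.40, -0.91 and -0.62. At an unadjusted p under 0.05 there were 7, 2 and 0 genes on days 14, 21 and 28. The share of all genes at that unadjusted cut is not given here, so these counts have no background to be read against. DESeq2 called 0 on both day 21 and day 28. In the test of any difference among the 5 days, Hspa1a (adjusted p = 0.0022), Hspb1 (0.0107), Cryab (0.0198) and Hspa1b (0.0428) passed, 4 of 10 genes against a background of 18%.

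Against day 7, Hspa1a, Hspb1 and Cryab were higher on day 28, with log2 fold changes of 2.79, 2.98 and 1.00 (adjusted p = 0.0299, 0.00391 and 0.0291), while 6.4% of all genes were higher. All 3 calls were lost without day 28 replicate 1, where the log2 fold changes were 1.36, 0.63 and 0.47 (adjusted p = 0.333, 0.432 and 0.304). None of them was kept with the mouse number as a block, where they were 2.37, 1.90 and 0.88 (adjusted p = 0.224, 0.0729 and 0.0575). Without day 7 replicate 3 Hspb1 alone was called. No heat shock gene passed the edgeR test between days 14 and 7 or between days 21 and 7, where 1.66% and 7.26% of all genes changed. At an unadjusted p under 0.05 there were 1 and 4 such genes, again without a share of all genes to read them against. DESeq2 called 0 in both comparisons. Among the 4 of the day 21 comparison, Hspa1a (2.32 in log2 units, adjusted p = 0.0933) and Cryab (0.70, adjusted p = 0.163) stood above every day 7 library in all 4 libraries, as did 7.75% of all genes. Hspd1, also among the 4, and Hspa8 lay wholly under day 7 on day 21, as did 9.18% of all genes.

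Day 28 was the least uniform day for the heat shock genes. Replicate 1 held 11906 CPM summed over the 10 genes, against 1750 and 1654 CPM in replicates 2 and 3 and 3505 to 6978 CPM on day 0. Each of the 10 genes was higher in replicate 1 than in both others, as were 36.4% of all genes tested. The median difference in log2 CPM from the mean of the other 2 libraries was 2.45 for the heat shock genes and 0.20 for all genes. Over all genes, the standard deviation of the difference from the other libraries of a day was 1.03, 1.23 and 1.26 in replicates 1, 2 and 3. In the libraries of the other days it was 0.64 to 1.10. The share of counts from mitochondrial genes was 2.72% in replicate 1 and 2.03% and 2.26% in the others, and the totals were 722000, 555142 and 589013 counts. Genes with a count numbered 12350, 10818 and 10674.

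**Figure D4:**
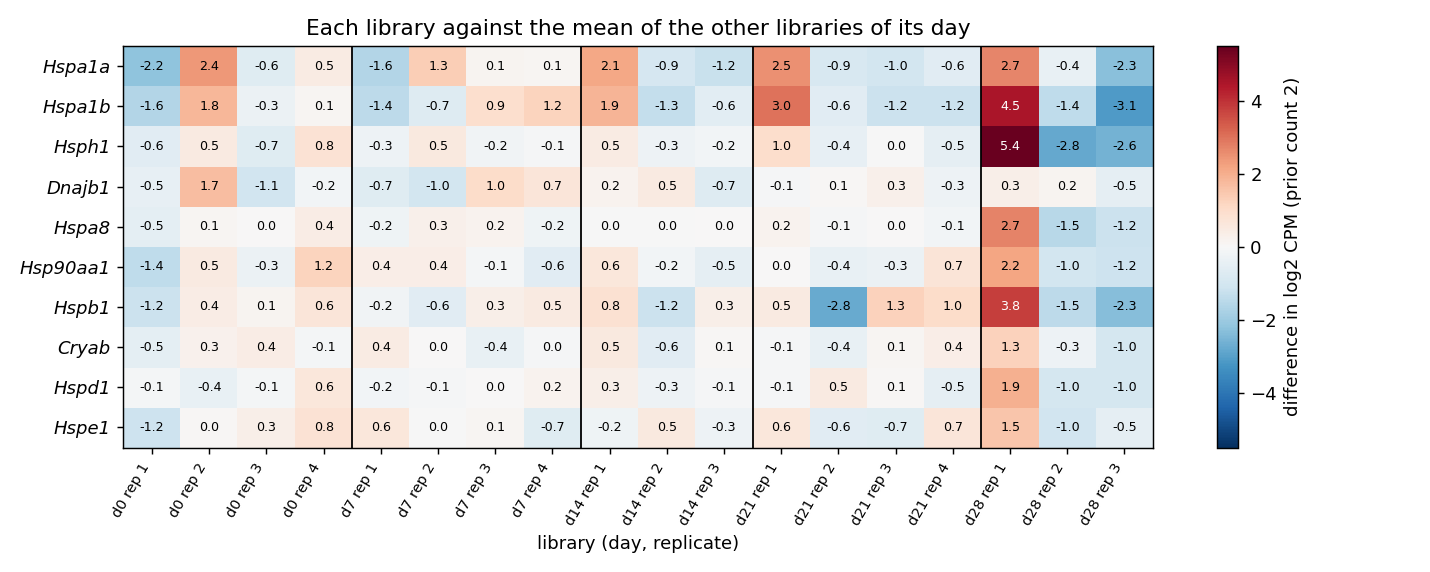
Difference in log2 CPM between each library and the mean of the other libraries of its day, for the 10 heat shock genes. Columns are libraries ordered by day (d) and replicate (rep), vertical lines divide the days, and red is above and blue below the other libraries. Day 28 replicate 1 is above in all 10 genes, by 5.43 for Hsph1, and day 0 replicate 2 and day 21 replicate 1 are above for Hspa1a and Hspa1b.

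Hsph1 had the largest such difference of all 10312 genes, with 589 CPM in replicate 1 against 9.92 and 11.2 CPM in the other libraries, which rested on 410, 6 and 7 counts. Hspa1b, at 365, 21.5 and 7.99 CPM, was exceeded by 1 gene, Hsph1 itself, and Hspb1, at 3685, 322 and 214 CPM, by 7 genes. Hspa8 stood at 4833, 671 and 793 CPM, Hsp90aa1 at 880, 197 and 185 CPM and Hspa1a at 303, 69.5 and 27.2 CPM. These 6 genes differed by over 2 log2 units, as did 5.71% of all genes. Cryab stood at 445, 213 and 155 CPM, Hspd1 at 494, 126 and 128 CPM and Hspe1 at 269, 79.4 and 104 CPM. Dnajb1, at 43.1, 39.7 and 28.8 CPM, was the member that differed least.

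The other chaperone lists differed in the share of genes that were highest in replicate 1, which was 36.4% over all genes. All 17 chaperones of the endoplasmic reticulum were, with a median difference of 1.35 log2 units, among them Hspa5 (BiP) at 1914 against 493 and 438 CPM. Of 14 subunits of the cytosolic chaperonin and prefoldin 11 were (78.6%), and of 25 relatives of HSP70, HSP90 and HSP40 13 were (52%), among them Dnaja1 at 375 against 49.6 and 81.5 CPM. The share was near that of all genes for 24 co-chaperones (10 genes, 41.7%), 5 regulators (2 genes, 40%) and 15 mitochondrial protein quality genes (5 genes, 33.3%). The median differences of these lists were 0.68, 0.49 and 0.03 log2 units, against 0.20 over all genes. Those of the chaperonin and prefoldin list and of the relatives were 0.66 and 0.37. Of the 5 other small heat shock protein genes 1 was highest there, and their median difference was -0.14. Hspa5 and Dnaja1 were singled out after their values were seen. The smooth muscle sum was 33467 CPM in replicate 1 against 26633 and 25534 CPM, the macrophage sum 995 against 1007 and 1349 CPM and the sum of immediate early genes 1079 against 757 and 825 CPM, and their part in this difference was not tested.

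Without replicate 1 the day 28 libraries gave a different result. Since replicate 1 was left out for its high levels of these same genes, lower values follow from that choice. The p-values do not allow for it, and 2 libraries remain. Hsph1 was then lower than on day 0 (log2 fold change -4.45, adjusted p = 4.05e-05), as were Hspa8 (-1.86, adjusted p = 0.000196) and Hspa1b (-4.34, adjusted p = 0.0173), against 0 genes called with all 3 libraries. Of all genes in that fit, 2.66% were lower on day 28. Hspa1a and Hspb1 had log2 fold changes of -3.00 and -1.87 (adjusted p = 0.0633 and 0.0512). Against day 7, Hspa8 (-1.46, adjusted p = 0.000403), Hsph1 (-2.48, adjusted p = 0.00205) and Hspd1 (-0.99, adjusted p = 0.026) were lower. Of all genes in that fit, 9.66% were lower than on day 7. The 2 remaining libraries held the lowest levels of Hspa8 and Hsph1 in the series. Their smooth muscle sums were 26633 and 25534 CPM, above those of day 7 and below those of day 0. The part of these sums in the levels of Hspa8 and Hsph1 was not tested.

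**Figure D5:**
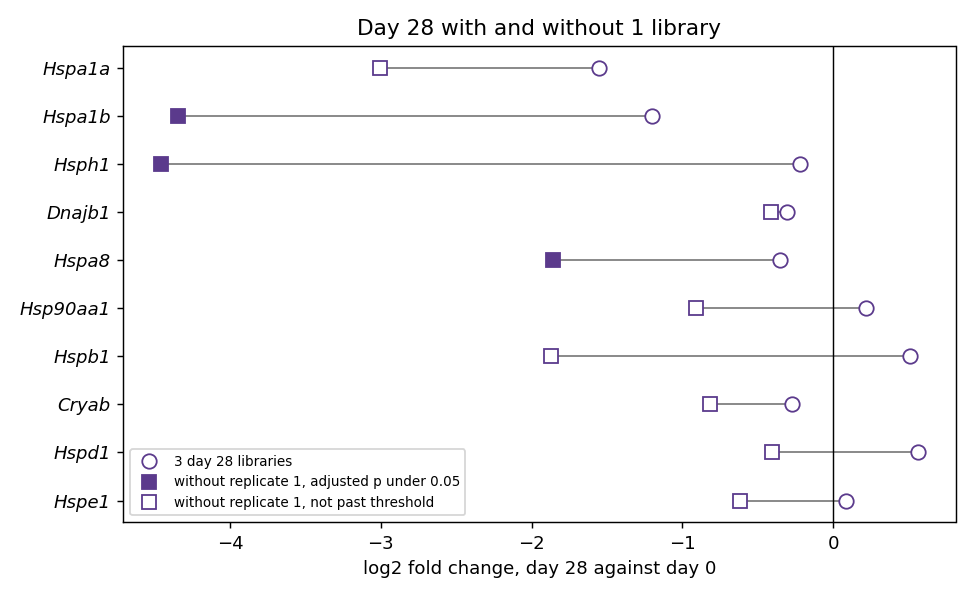
Log2 fold changes of the heat shock genes on day 28 against day 0, from a fit of 18 libraries (circles) and from a fit without day 28 replicate 1 (squares). Filled squares have an adjusted p under 0.05. All 10 squares lie left of 0 and left of their circles, and Hsph1 moves from -0.22 to -4.45.

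The wider chaperone network was read against day 0 through lists of genes by role. On day 7, 8.53% of all genes were lower and 11.3% higher, with a median log2 fold change of 0.07. Of 25 relatives of HSP70, HSP90 and HSP40, 4 were lower on day 7 and 0 higher, with a median log2 fold change of 0.00. They were Hspa2, a muscle and testis HSP70 (-2.96, adjusted p = 4.5e-05), and the HSP40 genes Dnajb2 (-2.43, adjusted p = 8.54e-06), Dnajb4 (-2.21, adjusted p = 0.00528) and Dnajb5. On day 21, 3 were lower and 2 higher (2.93% and 5.92% of all genes), the latter being Dnajc7 (1.19, adjusted p = 0.02) and Dnajb14 (0.84, adjusted p = 0.0406). Of 24 co-chaperones 3 were lower on day 7 and none higher, namely the myosin chaperone gene Unc45a (-1.81, adjusted p = 0.00211), Cdc37l1 (-1.33, adjusted p = 0.018) and Bag2 (-1.70, adjusted p = 0.0432), and the median was -0.59. These 3 of 24 are a share near that of all genes.

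All 5 regulators of the response that were tested had negative log2 fold changes on day 7, with a median of -0.90. By the test 1 of them was lower, Hsbp1, which binds heat shock factor 1 (-0.90, adjusted p = 0.0305). Hsf1, the gene of heat shock factor 1, had means of 35.9 CPM on day 0 and 22.7 CPM on day 7 (-0.67, adjusted p = 0.473), and Hsf2 had means of 24.9 and 8.68 CPM (-1.51, adjusted p = 0.148). Of 14 subunits of the cytosolic chaperonin and prefoldin 1 was lower on day 7, Pfdn5 (-0.64, adjusted p = 0.0326), and of 15 mitochondrial protein quality genes 1 was lower, Atf5 (-1.10, adjusted p = 0.0241). These 2 counts are near the 8.53% of all genes that were lower on day 7, and the medians of these 2 lists were 0.30 and -0.04. Of 17 chaperones of the endoplasmic reticulum 1 was higher on day 7, the disulfide isomerase gene Pdia6 (1.22, adjusted p = 0.00294), while 11.3% of all genes were higher. Pdia6 had means of 421 CPM on day 7 and 181 CPM on day 0, and the median of the list was 0.22.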

How the data were processed

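Laser-dissected carotid sections of 18 libraries were sequenced by MACE. Reads that repeated a molecular identifier were dropped by the authors, who then ran Salmon (1.9.0 in the submitters' processing notes, build mm39). Per gene, the authors deposited the estimated counts from Salmon (expected counts), all of them whole numbers. A second deposited table of values normalized with DESeq2 (1.36.0) was not used here. The annotation release and the use of the strand are not given in the sources used here.

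The fit of the estimated counts used edgeR 4.0.16 under R 4.3.3 (filterByExpr by day with a minimum count of 10, TMM, quasi-likelihood test, Benjamini-Hochberg over 10312 genes, threshold 0.05), with the day as the only factor. Log2 CPM for differences between libraries and for likeness used a prior count of 2. The steps were tested on simulated data. The heat shock genes, the lists and the alternatives were chosen with earlier results of these data known. All 10 heat shock genes are named. Of each chaperone list, up to 3 called genes of smallest p per direction are named, of cell-type lists the 2 of highest mean CPM at most, and 5 genes of most similar pattern for the HSP70 pair and for Cryab. Dnajb5, Hsp90ab1, Hsf1, Hsf2 and the day 28 examples were named after their values were seen. Promoters were read from GRCm39 with GENCODE vM39. Alternatives used DESeq2 1.42.0, limma 3.58.1, other normalization factors, no filter, 2 days only, blocks for replicate and mouse number, the summed HSP70 pair and each library left out. The likeness ranks without day 28 replicate 1 were added after seeing the data. No library pair, 24 within a day and 129 across days, agreed within sampling noise (chi-square of at least 4.02 per degree of freedom). The 3 day 0 and day 21 libraries of the same mouse number had residual correlations of 0.06, -0.01 and 0.04. At these totals of 440675 to 878310 counts, counting error is large for genes with few counts.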

Additional observations from a re-analysis of the deposited data

Results flagged for a closer look

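Of 30 groups of 4 libraries tested (10 heat shock genes on days 0, 7 and 21), 2 held a library far from the others by Dixon's criterion, which chance alone would give in about 1 in 20 groups. Both were day 21 replicate 1. Hspa1a stood at 250.757 CPM there, against 37.8 to 46.5 CPM in the other 3 libraries, and Hspa1b at 225.918 CPM against 23.0 to 32.3 CPM. The 2 genes are paralogs with nearly the same promoter, so they are not separate evidence. In that library the summed CPM of 3 skeletal muscle genes was 267, against 0 to 6.05 in the other 3, and its part in these levels was not tested. Groups of 3 libraries, day 28 among them, are not covered by this criterion.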

How the results depend on the processing

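Of the fold changes of single heat shock genes under the alternatives, 1739 kept their direction and their side of the threshold, 51 newly passed it, 31 no longer did and 54 turned direction. Of the 54, 2 were called in either fit, both without day 28 replicate 1, where the log2 change from day 7 to day 28 turned to -1.46 for Hspa8 and to -2.48 for Hsph1. Over all libraries left out in turn, the log2 fold changes that turned ran on day 7 against day 0 from -0.33 to 0.66 for Dnajb1, on day 14 from -0.44 to 0.47 for Dnajb1 and on day 21 from -0.21 to 0.70 for Dnajb1 and -0.34 to 0.0089 for Hspd1. On day 28 against day 0 they ran from -1.86 to 0.070 for Hspa8, -0.91 to 0.58 for Hsp90aa1, -4.45 to 0.34 for Hsph1, -0.54 to 0.37 for Dnajb1, -1.87 to 0.99 for Hspb1, -0.40 to 0.88 for Hspd1 and -0.62 to 0.39 for Hspe1. Against day 7 they ran from -0.39 to 0.95 for Hspa1b and -0.40 to 0.10 for Dnajb1 on day 14, and from -0.44 to 1.57 and -0.16 to 0.34 on day 21. On day 28 they ran from -1.23 to 2.44 for Hspa1b, -1.46 to 0.45 for Hspa8, -0.22 to 1.24 for Hsp90aa1, -2.48 to 2.29 for Hsph1, -0.47 to 0.025 for Dnajb1, -0.99 to 0.27 for Hspd1 and -0.97 to 0.018 for Hspe1. Dnajb1 on day 7 against day 0 turned to 0.024 with DESeq2, 0.023 with RLE factors, 0.034 with library totals, 0.12 with the replicate block and 0.038 with the mouse number block. Hspa8 on day 28 against day 7 turned to -0.024 with DESeq2, -0.023 with RLE factors, -0.0091 with upper-quartile factors, -0.20 with the replicate block and -0.55 with the mouse number block. With the mouse number block Hspb1 and Hspe1 on day 28 against day 0 turned to -0.50 and -0.0042 and Hsph1 on day 28 against day 7 to -0.38. The replicate block turned Hspa1b on day 14 against day 7 to -0.078, and the fit of only 2 days turned Hspd1 on day 28 against day 7 to 0.0016. The number of genes called against day 0 was 5, 1, 0 and 0 on days 7, 14, 21 and 28. On days 14, 21 and 28 it was 6, 5 and 2 with no filter on low counts, and on days 14 and 21 it was 5 and 3 with only the 2 days compared. With no filter some edgeR adjusted p-values were far smaller at like fold changes. For Hspa1a on day 14 it was 1.57e-13 at -3.02, against 0.0317 at -3.03 with the filter. The share of all genes called with no filter is not given here, so its counts have no background to be read against. The replicate block gave 2 on both day 14 and day 21, but the libraries share only a number: over 33 same-numbered pairs the residuals correlated with a median of -0.01. The block on the mouse number gave 1 on day 21, and the summed HSP70 pair left 0 on day 14. Against day 7 the counts were 0, 0 and 3 on days 14, 21 and 28. They were 1, 3 and 6 with no filter, 3 on day 21 with only the 2 days compared, and 0 on day 28 with the mouse number block. Leaving out 1 library at a time gave 3 to 5 genes on day 7 against day 0, 0 to 5 on day 14, 0 to 2 on day 21 and 0 to 3 on day 28, and against day 7 it gave 0 to 2 on day 21 and 1 to 4 on day 28. The lowest count on day 7, 3, came without day 0 replicate 2. On day 14 the count was 0 without day 0 replicate 2, day 14 replicate 2 or day 14 replicate 3 and 5 without day 28 replicate 1. Leaving out day 21 replicate 1 or day 28 replicate 1 gave 2 on day 21, and leaving out day 0 replicate 1 gave 1. Against day 7 it was 1 on day 21 without day 21 replicate 2 and 2 when day 28 replicate 1 was dropped, and on day 28 it was 1 without day 7 replicate 3. The test over any day, whose alternatives were chosen after seeing the data, called 4 genes, 8 with no filter and 2 to 7 with 1 library left out, the lowest count when day 0 replicate 2 or 3 was dropped and the highest when day 28 replicate 1 was. The cause of these changes was not tested.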
